A study of Mus musculus with 2 samples.

Results

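A total of 6052 autosomal windows of 1 kb carried little CG methylation in wild-type (WT) mouse osteoblasts and were heavily methylated in osteoblasts with deletion of Tet1, Tet2 and Tet3 (TCKO). The windows were chosen by the methylation calls of the same libraries that are described here. A window was eligible when it held at least 10 CG rows, with 1 row per cytosine and strand, and at least 40 calls in each library. It was kept when its pooled level, the methylated calls over all calls, was below 30% in WT and at least 50 percentage points higher in TCKO. Of 1351907 eligible autosomal windows, 0.448% met the rule. Of the 55120 eligible windows with WT below 30%, 11% met it. These counts restate the rule and carry no test.

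DNA was bisulfite-sequenced from primary calvarial osteoblasts of 3-day-old C57BL/6 mice after 3 days of culture, with 1 library from wild-type mice and 1 from mice with Prx1-Cre and floxed alleles (fl/fl) of Tet1, Tet2 and Tet3. The Cre is driven by a regulatory sequence of Prrx1, which is active in limb and skull mesenchyme. The share of cells in the culture without deletion was not measured. With 1 library per genotype, no difference has a replicate check, and the intervals given are 95% Wilson intervals for counting error only. A bulk level is an average over cells, so full methylation in some cells and partial methylation in every cell cannot be told apart.

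TET proteins oxidize 5-methylcytosine (5mC) to 5-hydroxymethylcytosine (5hmC) and further products, a route by which methylation is removed from DNA. In differentiated cells most CpGs outside CpG islands are methylated, and short stretches of low methylation mark promoters and distal regulatory elements bound by transcription factors. Bisulfite reads 5mC and 5hmC alike, so the calls alone do not tell which form a higher level holds. The paper reports less of the hydroxymethylated form in TCKO cells over its regions of gained CG methylation. That form was not examined in the windows described here.

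The WT library held 250877554 calls on autosomal CG cytosines and the TCKO library 214609823, with a median of 4 calls per covered cytosine in both. The autosomal level was 70.4% in WT and 76.6% in TCKO. An exon of Tet1 (chr10:62814436-62814573) had 62 calls in WT and 1 in TCKO, an exon of Tet2 (chr3:133469276-133469639) had 155 and 46, and an exon of Tet3 (chr6:83370383-83370719) had 85 and 26. These were the exons with the lowest ratio of 15, 7 and 5 exons with at least 50 WT calls, and a ratio as low was found in 0.711%, 2.92% and 5.47% of single exons of comparable depth. Within 1 kb of their transcription start sites (TSSs), 8 osteoblast markers had a median WT level of 26.5%. Bglap stood at 71.9%, Ibsp at 45.6%, Spp1 at 43.3% and Alpl at 32.1%, and the other osteoblast markers at 20.9% or less. The medians were 69.1% for 6 blood markers, 71.7% for 4 endothelial markers and 65.2% for 3 muscle markers. Kdr (endothelial) at 11.7% and Myod1 (muscle) at 32.1% were the lowest of their lists.

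To show what such windows look like, stretches of 300 bases on the plus strand of GRCm38 are printed for 6 of them, around the 200 bp with the largest difference and with every CpG in capitals. They are 3 of the 10 windows with the largest difference, the largest-difference windows of Col1a2 and Zfhx3, and the window over the start of Fgf7. No stretch touches an annotated exon.
Csnka2ip intron, chr16:64569101-64569400: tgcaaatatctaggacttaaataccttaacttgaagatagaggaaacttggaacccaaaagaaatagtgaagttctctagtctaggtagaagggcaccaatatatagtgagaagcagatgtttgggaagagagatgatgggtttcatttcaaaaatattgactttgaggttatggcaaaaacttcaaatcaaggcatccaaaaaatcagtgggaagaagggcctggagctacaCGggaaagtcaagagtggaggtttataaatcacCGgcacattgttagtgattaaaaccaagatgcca
Upstream of Gorab, chr1:163560251-163560550: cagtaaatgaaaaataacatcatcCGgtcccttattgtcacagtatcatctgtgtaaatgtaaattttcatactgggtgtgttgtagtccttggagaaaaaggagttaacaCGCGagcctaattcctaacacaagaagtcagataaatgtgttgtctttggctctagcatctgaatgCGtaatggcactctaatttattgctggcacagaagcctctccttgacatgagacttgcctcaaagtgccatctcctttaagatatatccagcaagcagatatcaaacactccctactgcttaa
Within the non-coding gene Gm4265, chr7:129975951-129976250: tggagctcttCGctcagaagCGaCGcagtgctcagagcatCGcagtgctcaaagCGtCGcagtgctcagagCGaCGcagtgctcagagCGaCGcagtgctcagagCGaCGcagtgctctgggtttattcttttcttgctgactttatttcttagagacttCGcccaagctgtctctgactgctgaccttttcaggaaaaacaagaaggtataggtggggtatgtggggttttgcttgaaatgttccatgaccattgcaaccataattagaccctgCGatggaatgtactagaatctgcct
Col1a2 intron, chr6:4519401-4519700: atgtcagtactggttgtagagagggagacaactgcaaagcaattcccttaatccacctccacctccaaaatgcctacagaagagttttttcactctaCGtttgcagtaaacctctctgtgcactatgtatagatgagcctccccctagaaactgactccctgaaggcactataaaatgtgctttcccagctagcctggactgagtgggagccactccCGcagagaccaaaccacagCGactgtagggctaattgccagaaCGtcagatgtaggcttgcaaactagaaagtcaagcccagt
Zfhx3 intron, chr8:107950101-107950400: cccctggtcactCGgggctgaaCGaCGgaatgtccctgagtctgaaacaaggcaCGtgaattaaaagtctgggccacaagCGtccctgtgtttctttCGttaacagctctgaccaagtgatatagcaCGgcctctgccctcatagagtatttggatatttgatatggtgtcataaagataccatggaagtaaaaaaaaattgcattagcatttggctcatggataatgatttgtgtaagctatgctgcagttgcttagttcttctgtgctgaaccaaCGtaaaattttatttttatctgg
Fgf7 promoter, chr2:126034301-126034600: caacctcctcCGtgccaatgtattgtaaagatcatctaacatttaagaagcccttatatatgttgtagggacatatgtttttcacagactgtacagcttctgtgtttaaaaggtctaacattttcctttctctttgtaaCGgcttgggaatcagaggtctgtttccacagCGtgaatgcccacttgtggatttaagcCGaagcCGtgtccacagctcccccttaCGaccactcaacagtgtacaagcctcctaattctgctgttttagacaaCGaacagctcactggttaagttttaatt

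CpGs were sparse in most of these stretches. The Csnka2ip stretch held 2 CpGs, both at 0% in WT and at 88.9% and 90.5% in TCKO. The stretch upstream of Gorab held 4 CpGs, between 0% and 20.8% in WT and between 78.3% and 100% in TCKO. The Gm4265 stretch was the densest, with 14 CpGs at 0% to 18.8% in WT and 84.2% to 100% in TCKO. Most of its CpGs lie in tandem copies of a short unit, where reads are harder to place uniquely. In the Fgf7 promoter 6 of 7 CpGs had no methylated call in WT, and in TCKO the CpGs stood between 62.5% and 100%. In the Zfhx3 stretch the 8 CpGs stood at 0% to 12.5% in WT and at 40% to 92.3% in TCKO, from as few as 5 calls per CpG. In every printed stretch the highest WT CpG lay below the lowest TCKO CpG.

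Pooled over the 6052 windows, the level was 18.2% of 778041 calls in WT and 77.1% of 713679 calls in TCKO. The median window stood at 19.1% in WT and 78.3% in TCKO, with a median difference of 57.7 points and a highest difference of 87.0 points. The difference was 60 points or more in 2296 windows (37.9%), 70 points or more in 495 and 80 points or more in 32. WT was below 10% in 1025 windows and at 0% in 36, and TCKO was at 80% or more in 2459 windows and at 90% or more in 179. The median window held 114 WT calls and 103 TCKO calls, so the 95% interval of a window's difference had a median width of 10.5 points on either side. The lower bound of that interval was 50 points or more in 1871 windows and 40 points or more in 4914. TCKO had 0.917 times the calls of WT in the windows and 0.852 times over all eligible windows.

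The windows form no separate island of points in the plot of WT against TCKO levels. Just inside the difference limit stood windows at chr19:53982001-53983000 (17.0% and 67.0%) and chr1:90338001-90339000 (22.1% and 72.1%). Just outside it stood chr2:168628001-168629000 (9.50% and 59.5%) and chr11:57598001-57599000 (18.1% and 68.0%). At the WT limit, chr12:86010001-86011000 (29.96% and 81.1%) and chr3:147288001-147289000 (29.95% and 85.4%) were just inside, while chr5:32122001-32123000 (30% and 81.8%) and chr16:50766001-50767000 (30% and 80.7%) were just outside. There were 846 windows with a difference of 50 to 52 points and 839 others with WT below 30% and a difference of 48 to 50 points. A further 1610 windows gained at least 50 points from a WT level of 30% or more. The reverse rule, with TCKO below 30% and WT at least 50 points higher, was met by 4 windows, 0.000296% of the eligible ones, which lay nearest to Ptprd, Neurod6, Kbtbd2 and Nrg1.

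**Figure D1:**
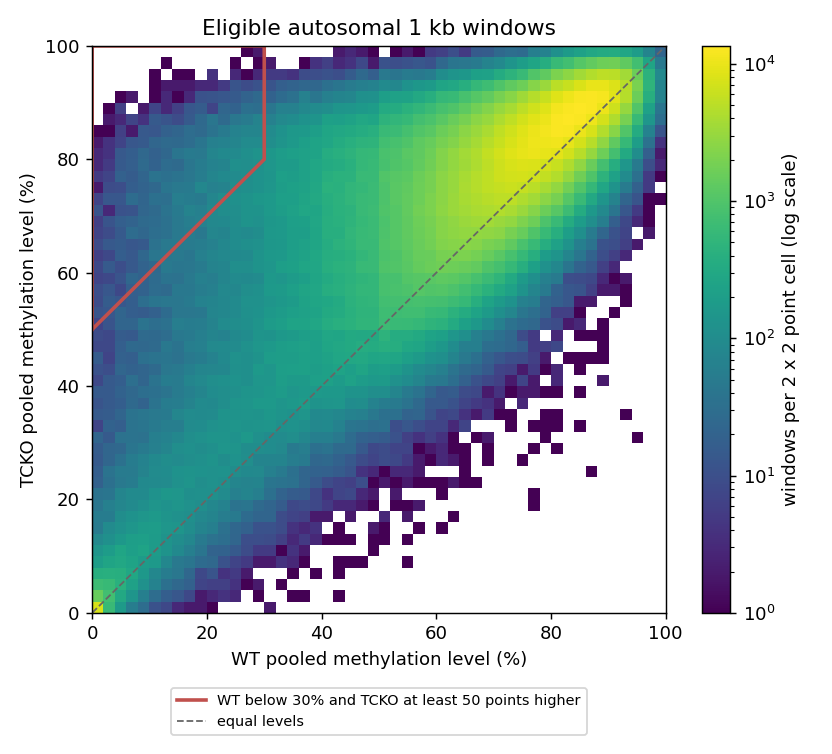
Pooled CG methylation level of each eligible autosomal 1 kb window in WT (x axis, %) and TCKO (y axis, %), with colour giving the number of windows per cell of 2 by 2 points on a log scale. The red line bounds the 6052 windows described, in the upper left corner, and the number of windows changes gradually across it.

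The stretch of low methylation in WT was narrow. In the window itself WT stood at 18.2%, while the 1 kb windows on either side stood at 62.9% and 63.3% and those 10 kb away at 71.5% and 72.0%. In TCKO the same positions stood at 77.1%, 80.9%, 81.2%, 81.3% and 81.3%. In steps of 100 bp, WT fell from 70.7% at 1 kb before the window to 44.4% in the last step outside it and 14.8% just past its centre. The difference 10 kb away was 9.84 points on the left and 9.37 on the right. The WT dip and the high TCKO level inside the windows follow from the rule, and the flanks were not used in it. Over all eligible windows with WT below 30%, the median TCKO level was 25%.

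**Figure D2:**
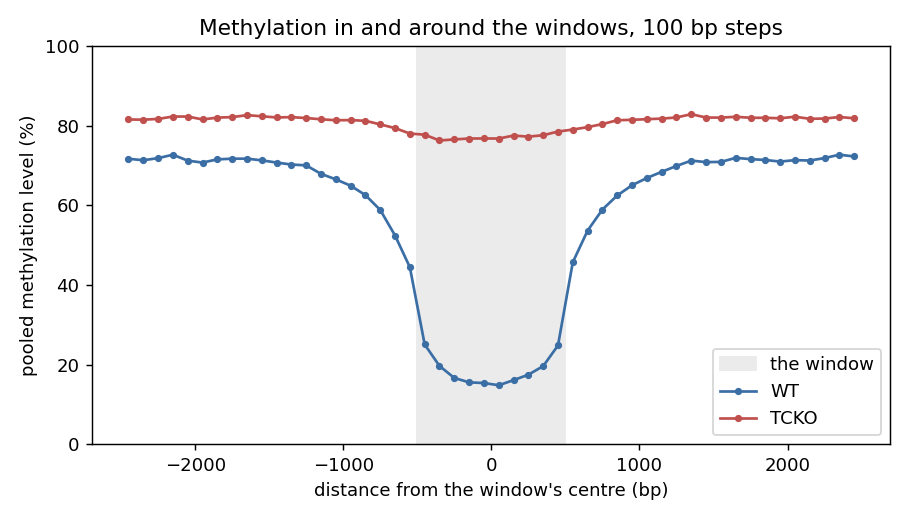
Pooled methylation level (y axis, %) of WT and TCKO in steps of 100 bp by distance from the centre of the 6052 windows (x axis, bp), with the window shaded. WT falls to 14.8% just past the centre, while TCKO stays between 76.3% and 82.9%.

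Inside the windows, where the rule fixes the direction of the pooled calls, single cytosines can be described but not tested. Of 53060 cytosines with at least 4 calls in each library, 51164 (96.4%) were higher in TCKO, 1023 were lower and 873 were equal. The plus and minus strands gave median differences of 58.7 and 58.1 points. Of 4368 windows with at least 20 calls on each strand in each library, 4261 (97.6%) gained 30 points or more on both strands. The gain did not fill every window. Of 4917 windows with at least 3 parts of 200 bp that held 8 or more calls, 58.4% gained at least 30 points in every such part, and in 41.6% at least 1 part gained less.

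The 10 windows with the largest difference among those with at least 100 calls in each library stood 78.9 to 86.2 points higher in TCKO, and none of them lay in the promoter of a coding gene. The largest was an intron of Csnka2ip at chr16:64569001-64570000, with 2.72% of 294 calls (interval 1.39% to 5.28%) in WT and 89.0% of 308 calls (85.0% to 92.0%) in TCKO. The next, at chr1:163560001-163561000 upstream of Gorab, which encodes a golgin (TSS distance -156832 bp), went from 5.81% of 172 calls to 89.7% of 174. An intron of Robo1, which encodes a receptor for Slit guidance ligands, went from 3.90% to 87.7% at chr16:72854001-72855000. The intervals of WT and TCKO were far apart in each of these windows.

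Of the others of the 10, most lay outside coding genes. The window upstream of Tnfsf8 (TSS distance -38154 bp), which encodes the ligand of CD30, went from 4.82% to 85.8%, and that upstream of Lyplal1 (-230191 bp), 186 bp past the start of the non-coding gene Gm37491, from 6.10% to 86.7%. The window in the non-coding gene Gm4265 went from 9.85% to 89.9%. Its nearest coding start is that of Fgfr2, a receptor for fibroblast growth factors, at 285356 bp. A window upstream of Plxna2 (-194324 bp), which encodes a semaphorin receptor, went from 4.90% to 84.3%. An intron of Tle3, which encodes a Groucho corepressor, went from 5.88% to 85.3% and was rich in CpGs for this set, with 32. Windows upstream of Glis3, a zinc finger factor gene (-71424 bp), and downstream of the start of Thbs2, which encodes a matricellular thrombospondin (98734 bp), went from 3.62% to 82.9% and from 5.33% to 84.2%.

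The windows were poor in CpGs beside other windows with WT below 30%, but not beside all eligible windows. They held a median of 11 CpGs, against 10 in all eligible windows and 21 in the eligible windows with WT below 30%. Of the low windows with 8 or fewer CpGs, 25.6% met the rule. The share was 23.0% with 9 to 12 CpGs, 18.98% with 13 to 16, 13.0% with 17 to 20 and 5.71% with 21 to 30. It was 0.348% with 31 to 50 CpGs, where 30 windows met the rule, and 0.00859% with 51 or more, where 1 of 11643 did. Away from TSSs the order was the same: among low windows more than 10 kb from a coding TSS, the share fell from 28.4% with 8 or fewer CpGs to 1.98% with 31 to 50. Windows with WT below 30% and 9 to 12 CpGs had median levels of 21.4% (WT) and 52.4% (TCKO), while those with 51 or more had 0.885% and 1.52%. GC content was 44.2% in the windows and 43.2% in all eligible windows at the median, and 13.8% of bases were soft-masked repeats against 21.7%. The median repeat share was 12% in all windows with WT below 30%, and 17.1% in the CpG-poor ones among them with a gain below 20 points.

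**Figure D3:**
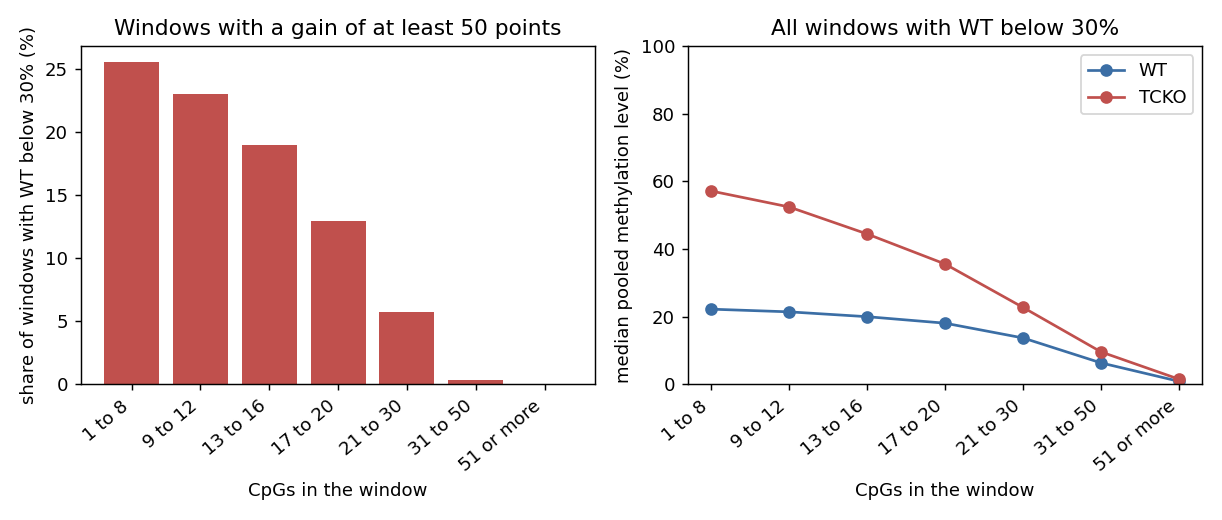
Left, the share of eligible windows with WT below 30% that gained at least 50 points (y axis, %) by the number of CpGs in the window (x axis); right, the median level (y axis, %) of all windows with WT below 30% in WT and TCKO by the same classes. The share falls from 25.6% to 0.00859%, and the TCKO median falls from 57.1% to 1.52%.

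Most windows lay far from promoters. By its midpoint, a window was placed in a promoter (1000 bp before to 100 bp after the TSS of a coding transcript in GENCODE M21), a coding-gene exon, an intron, a non-coding gene or none of these. Introns held 2861 windows (47.3%), against 42.0% of all eligible windows and 35.6% of the windows with WT below 30%. Intergenic sequence held 2539 (42.0%), against 45.2% of all eligible windows and 28.3% of the low ones. Non-coding genes held 436 (7.20%), against 7.02% and 6.18%, and exons 118 (1.95%), against 3.70% and 7.47%. Promoters held 98 windows (1.62%), against 2.07% of all eligible windows and 22.4% of the low ones. Of the intron windows 44.4% lay in a first intron, against 35.8% for all eligible windows and 66.0% for the low ones.

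The median distance to the nearest coding TSS was 44175 bp, close to the 40536 bp of all eligible windows and unlike the 3340 bp of windows with WT below 30%. Within 10 kb of a coding TSS lay 1141 windows (18.9%), against 21.9% of all eligible windows and 59.4% of low windows. Counting the starts of all GENCODE transcripts, non-coding ones included, the share was 40.8%, against 43.1% of all eligible windows. A low window met the rule in 0.826% of cases within 1 kb of a coding TSS, in 8.34% at 1 to 10 kb, in 20.6% at 10 to 100 kb and in 25.1% beyond 100 kb. Among low windows with at most 20 CpGs the shares were 5.22%, 13.7%, 24.9% and 27.0%. By chromosome the windows numbered from 3.82 per 1000 eligible windows on chromosomes 7 and 14 to 5.18 on chromosome 1.

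A total of 95 windows (1.57%) held the TSS of a coding transcript, 37 of them at the annotated start of the gene. The share was 1.94% of all eligible windows and 25.5% of the windows with WT below 30%. The largest difference was at an internal start of Ptk2, which encodes focal adhesion kinase, with 7.81% of 64 calls in WT and 87.3% of 63 calls in TCKO. The window at the start of Notch1, a receptor for Delta and Jagged ligands, went from 9.33% to 81.0%. An internal start of Tiam2, an exchange factor for Rac, went from 3.28% to 73.8%, and the start of the chemokine gene Ccl7 from 7.14% to 76.7%. Il1rl1, which encodes the receptor for interleukin 33, went from 16.1% to 85.1% at an internal start, and Il33 itself from 18.8% to 84.7% at its start. An internal start of Fgfr2 went from 6.33% to 73.6%, the start of Zbtb38, which encodes a protein that binds methylated DNA, from 10.7% to 77.7%, and that of Spink13, a protease inhibitor gene, from 13.7% to 80.2%.

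The window at the start of Fgf7 (ENSMUSG00000027208), which encodes a fibroblast growth factor made by mesenchymal cells, held 239 calls in WT with 9.21% methylated and 171 calls in TCKO with 76.0% methylated. It is the window whose promoter stretch is printed above. Fgf7 is 1 of 11 genes listed here from those the study examined, and 6 of the 11 (54.5%) had a window of very strong gain in the gene or within 10 kb of a TSS, against 10.7% of all coding genes. Of their eligible windows 5.18% met the rule, against 0.437%. The list is not all of the genes the study examined, and these were chosen with results of these libraries in view.

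Among the others, Col1a1 and Col1a2, which encode the chains of type I collagen, held 4 and 10 windows. Runx2, the factor required for osteoblast differentiation, held 12. Alpl, the tissue-nonspecific alkaline phosphatase gene, held 1 window 2883 bp from its annotated start, at 14.6% in WT and 72.8% in TCKO. P2rx7, an ATP-gated ion channel gene, had 1 window upstream of its start (-7410 bp), at 12.2% and 73.2%.

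The other 5 genes of the study had none. The window over the start of Ctsk, which encodes cathepsin K, was at 0.787% in WT and 46.1 points higher in TCKO. The windows just upstream of Clec11a (osteolectin) and Cys1 (cystin 1) were at 3.01% and 3.07% in WT and 49.4 and 48.7 points higher in TCKO, just short of the limit. In Sp7, the osterix gene, the largest difference was 48.6 points from a WT level of 35.8%, and around Bglap, the osteocalcin gene, it was 11.9 points from 72.0%.

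Coding genes with several windows were mostly long. At least 1 window lay in the span of 1898 of 19867 coding genes with an eligible window, at least 2 in 648, at least 3 in 290, at least 5 in 83 and at least 10 in 9. The 290 genes with 3 or more had a median span of 228 kb, against 19.1 kb for all. The largest count, 26, belonged to Gm20388, a predicted gene drawn over 4435 kb that overlaps many others. The 18 windows of Fgfr2 rest on an M21 span of 2961 kb. Counted over all windows, inside that span or not, only 12 had an Fgfr2 start as their nearest coding start. The predicted gene Gm42906 held 10 windows over 365 kb.

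Among well-described genes, Zfhx3, a homeobox and zinc finger factor gene of 1019 kb, held 17 windows, 1.98% of its eligible windows. Dnm3, which encodes the GTPase dynamin 3, held 16 (4.38%), and Runx2 held 12 (4.56%). Counted over all windows, only 6 had a Dnm3 start as their nearest coding start. The Runx2 span overlaps that of Supt3, which held 9 windows, and the Runx2 windows nearest to its annotated start lie in both spans. Auts2, which encodes a nuclear regulator of transcription, held 12 (1.40%), and the phosphodiesterase gene Pde4d held 10 (1.03%). Mbnl2, a splicing factor gene, held 9 (6.38%). Col1a2 stood apart by length, with 10 of the 31 eligible windows (32.3%) of a gene of 36.7 kb. By share, Col1a1 was the highest of the genes with 3 or more, with 4 of 11 (36.4%). It was followed by Klf6, a zinc finger factor gene, with 3 of 9 (33.3%), and by Col1a2.

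In Col1a2 (ENSMUSG00000029661, chr6:4504814-4541544, plus strand) the windows ran from 3687 to 27687 bp past the gene start. The window nearest to the start went from 8.15% of 135 calls in WT to 71.9% of 121 calls in TCKO. The next went from 9.09% to 76.8% and the third of the touching run from 19.3% to 87.3%. A run of 3 more began 13687 bp past the start, with 19.3% and 88.4%, 8.57% and 78.8%, and 23.8% and 78.1%. The other windows of the gene stood at 16.7% to 26.7% in WT and 77.0% to 84.3% in TCKO. They were 10 of 31 eligible windows of the gene, and none lay over its start. Together with a window just past the 3′ end they made the largest cluster, 11 windows in 35 kb (chr6:4508001-4543000), with 17.8% of 1150 calls in WT and 81.5% of 1024 calls in TCKO.

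In Runx2 (ENSMUSG00000039153, chr17:44495987-44814797, minus strand) the windows lay in separate groups. Near the annotated start, pairs of touching windows at 3296 and 4296 bp stood at 25% and 22.3% in WT and 81.2% and 76.1% in TCKO, and at 9296 and 10296 bp at 18.8% and 23.1% in WT and 81.9% and 81.6% in TCKO. At 104296 bp a window went from 8.89% of 45 calls to 66.7% of 60, and at 131296 bp from 13.5% of 245 calls to 66.1% of 239. The last, at 314296 bp, went from 18.99% to 91.1%, the largest difference of the gene at 72.1 points. The WT levels of the 12 windows ranged from 8.89% to 28.4% and the TCKO levels from 66.1% to 91.1%.

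**Figure D4:**
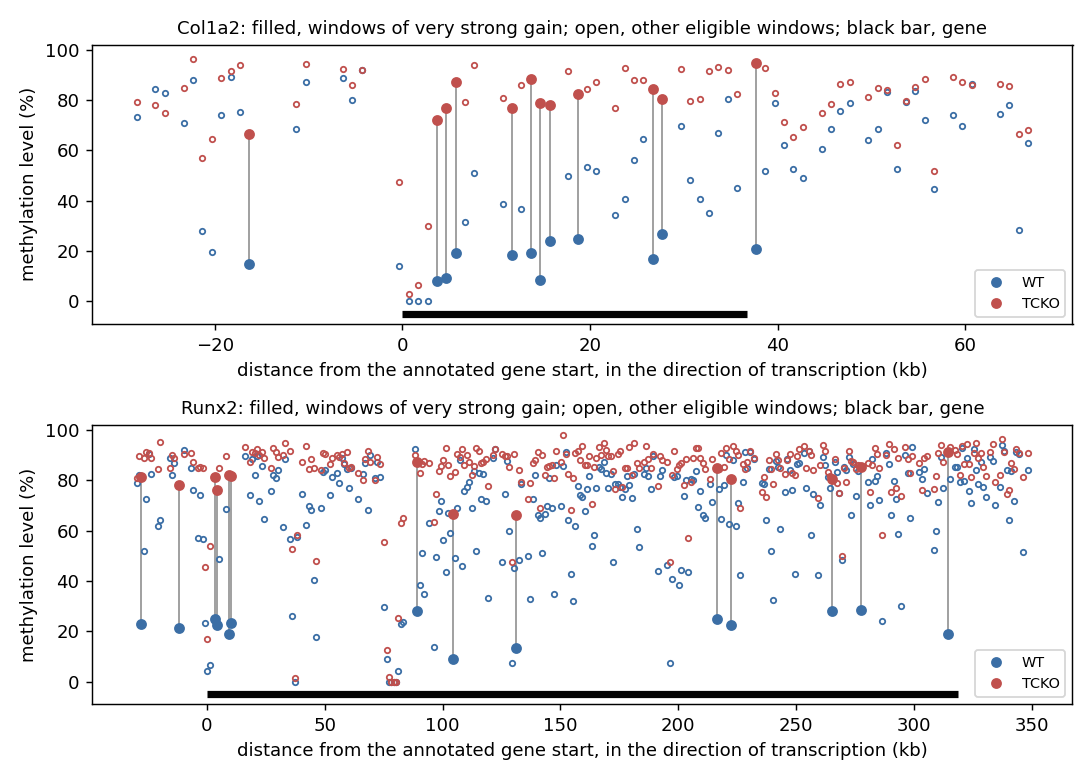
Methylation level (y axis, %) of eligible 1 kb windows in WT and TCKO across Col1a2 (upper) and Runx2 (lower) by distance from the annotated gene start (x axis, kb), with filled points for windows of very strong gain joined by a line, open points for the other windows and a black bar for the gene. In Col1a2 most filled windows lie among open ones in the gene body from 3687 bp on. A filled window also lies 16.3 kb before the gene start (14.7% in WT and 66.4% in TCKO), and another just past the 3′ end. In Runx2 the filled windows fall in separate groups.

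Prrx1 (chr1:163245119-163313710, minus strand), which encodes a homeobox factor of limb and skull mesenchyme, held 7 windows among 58 eligible ones (12.1%). At 32209 bp from its start a window went from 3.77% of 53 calls in WT to 77.8% of 81 calls in TCKO, and at 14209 bp from 5.47% of 128 calls to 81.3% of 171. The Prx1-Cre transgene carries regulatory sequence of this locus, and whether any window overlaps that sequence was not tested. A further cluster of 5 windows in 7 kb lay between Prrx1 and Gorab (chr1:163356001-163363000), with 13.2% in WT and 69.9% in TCKO.

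Most windows had no other within 10 kb. The spacing of other eligible windows was not measured, so whether these windows lie closer together than those was not tested. The median distance from a window to the nearest other was 57000 bp, and the median gap between neighbours was 142000 bp. Another window lay within 10 kb of 1247 windows (20.6%), within 100 kb of 3847 (63.6%), and farther than 500 kb from 408. Touching pairs numbered 253. Chained at up to 10 kb, the windows made 558 clusters of 2 or more, of which 474 were pairs, and 4805 windows stayed single. Touching runs never exceeded 3 windows, and 13 runs reached that length.

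After Col1a2, the largest clusters lay at Zfhx3 and Btd. At Zfhx3, 7 windows in 19 kb over the gene start (chr8:107940001-107959000) stood at 15.4% of 1126 calls in WT and 76.4% of 1355 in TCKO. At Btd, the biotinidase gene, 7 windows in 14 kb (chr14:31659001-31673000) stood at 19.4% and 80%. Clusters of 6 lay in 2010111I01Rik (15.1% and 81.7%) and Mbnl2 (15.03% and 74.1%), and a cluster of 6 ran from Col1a1 to Hils1 (20.97% and 79.7%). Of the runs of 3, those with the highest median difference were the 2 in Col1a2. They were followed by runs at chr9:41586001-41589000 (8.61% and 73.2%), at chr1:121397001-121400000 upstream of Ccdc93 (10.7% and 75.5%) and at chr1:162037001-162040000 in Dnm3 (7.89% and 73.3%).

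Counts by gene group are given beside those of all coding genes, with no test. Over all coding genes, 10.7% had a window in the gene or within 10 kb of a TSS, and 0.437% of their eligible windows met the rule. Of 18 bone matrix and mineralisation genes, 9 had a window, and 3.99% of their eligible windows met the rule. Col1a1 and Col1a2 held 14 of the 22 windows, and without them, an alternative added after seeing the data, the share was 1.61% (8 of 498). Besides Col1a1, Col1a2 and Alpl, these were Sparc (osteonectin), Mgp (matrix Gla protein), Omd (osteomodulin), Dmp1 (dentin matrix protein), Ank (a pyrophosphate transporter) and Spp1 (osteopontin). The Mgp window went from 5.36% to 68.7%, and those of Sparc from 3.23% to 54.7% and from 12.6% to 69.6%. Ibsp (bone sialoprotein), Bglap and Bglap2 were among the genes without one.

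Of 20 osteoblast transcription factors 6 had a window (1.85% of eligible windows), with Runx2 and Prrx1 holding 19 of the 26. Of 22 AP-1, RUNX and TEAD factors or their coactivators 7 had one (1.66%), of which Runx2 held 12 of 22 windows and Runx1 and Maf 3 each. Of 37 collagens and matrix receptors 24 had one (1.42%). The integrin gene Itgb5 led with 8 windows, 1 of which went from 0.877% of 114 calls to 65.9% of 85. Col8a1 held 4, and Col5a2, Col6a3, Col24a1, Col25a1 and Tnc (tenascin C) held 3 each.

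Signalling genes were counted in the same way. In the TGF-beta and BMP list, 15 of 39 genes had a window (1.29%). Ltbp1, which encodes a binding protein of latent TGF-beta, held 6, and Smad3, a transducer of TGF-beta signals, held 4, of which the largest difference was from 3.81% to 77.8%. The BMP receptor gene Acvr1 held 4 and the inhibitor gene Smad7 held 3. In the Wnt list 12 of 40 genes had a window (1.03%), with 5 in the receptor gene Ror1 and 3 each in the receptor gene Ror2 and in Tcf7l2, which encodes a nuclear effector of Wnt signals. The coreceptor gene Lrp5 held 2, with differences of 58.7 and 77.0 points. In the actin and focal adhesion list 17 of 35 had one (1.25%). Palld (palladin) had 6 and Myh9 (a non-muscle myosin heavy chain) had 4, with differences of up to 80.2 points. Both windows of Acta2, the smooth muscle actin gene, were classed as promoter, at 1.43% and 17.4% in WT and 54.6% and 70.9% in TCKO.

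Lists of other cell types had shares from 0.153% to 0.597%. Of 25 blood and osteoclast genes, 1 (Ptprc, the CD45 gene) had a window (0.153%). Of 15 endothelial genes, 1 had any, the ETS factor gene Erg, with 5 (0.562%). The shares were 0.597% for skeletal muscle (3 of 16 genes), 0.523% for chondrocyte (5 of 18) and 0.526% for neuron and glia genes (3 of 14). The lists differ in gene length, with median spans of 13.5 kb for the bone matrix and 114 kb for the collagen and matrix receptor list, and overlap in part.

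Short strings known from transcription factor binding were counted in the windows and in all eligible windows on both strands. The paper lists the bZIP (AP-1), Runt, CTF (NFI), bHLH (E-box) and TEAD families among the top motifs of its regions of gained CG methylation. Those regions came from the same libraries, so higher shares of these strings here are not independent of that result. The AP-1 string TGACTCA, bound by FOS and JUN dimers, was in 1788 windows (29.5%), against 15.5% of all eligible windows. The share was 27.8% at a difference of 50 to 60 points, 31.5% at 60 to 70 and 35.4% at 70 or more. The Runt string AACCACA, bound by RUNX factors, was in 33.5% against 22.0%, the TEAD string CATTCCA in 22.6% against 15.4% and the NFI string TTGGCA in 58.0% against 41.1%. The E-box CAGCTG was in 44.9% against 34.0%. The GATA string AGATAA was in 42.1% against 47.7%, the MEF2 string TATTTATAG in 1.85% against 1.63%, and the CTCF core CCACCAGGG in 1.29% against 1.11%. No string contains another, and a string is not a site. Of the stretches printed above, that of Col1a2 holds the Runt string once and none holds the AP-1 string.

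Low windows with a small difference gave another reference, with a median TCKO level of 25.9% and a highest of 49.6%. Of the 10724 eligible windows with WT below 30%, at most 20 CpGs and a difference below 20 points, 15.6% held the AP-1 string, 20.6% the Runt string, 16.5% the TEAD string and 41.3% the NFI string, while 43.4% held the E-box and 2.32% the CTCF core. For the 10712 such windows with a difference of 20 to 50 points, the shares were 23.3%, 27.3%, 20.9%, 49.9%, 46.8% and 1.75% in the same order. Of the windows of very strong gain with at most 20 CpGs, 29.9% held the AP-1 string, 33.9% the Runt string and 44.3% the E-box. AP-1 and Runt strings occurred together in 9.48% of the windows of very strong gain and in 3.56% of all eligible windows. Each string alone was also more frequent in the former, and whether they occurred together beyond that was not tested.

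The position of the string within the window was not used in the choice. In the 1473 windows that held the AP-1 string once, the WT level was 8.03% within 50 bp of it, 10.5% at 50 to 100 bp, 14.9% at 100 to 200 bp, 18.6% at 200 to 300 bp, 21.8% at 300 to 500 bp and 25.7% beyond. In TCKO the level was between 75.4% and 77.8% at all of these distances. Around a lone Runt string WT went from 11.7% within 50 bp to 24.6% beyond 500 bp, and around a lone TEAD string (1216 windows) from 13.5% to 22.1%. Around the E-box WT went from 15.8% to 20.98%. Around the GATA string there was no dip, with 18.9% within 50 bp, 16.1% at 200 to 300 bp and 20.9% beyond 500 bp. The WT level was lowest near the centre over all 6052 windows as well, and distance from a string was not separated from distance from the centre.

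**Figure D5:**
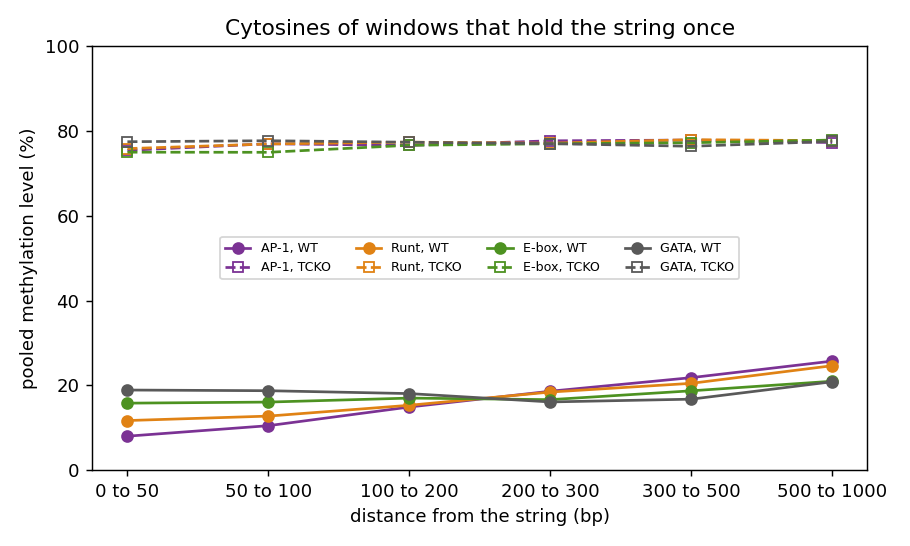
Pooled methylation level (y axis, %) of the cytosines of windows that hold a string once, by distance from the string (x axis, bp), for WT (filled circles) and TCKO (open squares). Around the AP-1 string WT climbs from 8.03% to 25.7%, around the GATA string it stands at 18.9% close by and 20.9% beyond 500 bp, and TCKO is between 74.9% and 77.9% throughout.

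Of the 155 windows in the 10 genes and 5 clusters with most windows, 45 held the AP-1 string. The pair with the largest difference that held it once is printed here with the string in capitals, to show its place among the CpGs.
In the span of Gm20388, chr8:122181459-122181758: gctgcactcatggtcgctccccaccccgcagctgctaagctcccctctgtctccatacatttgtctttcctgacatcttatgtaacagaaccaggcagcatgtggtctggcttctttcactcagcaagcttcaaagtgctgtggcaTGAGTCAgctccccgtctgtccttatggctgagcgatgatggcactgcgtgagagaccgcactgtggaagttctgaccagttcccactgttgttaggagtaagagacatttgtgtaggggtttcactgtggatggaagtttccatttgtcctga
Pde4d intron, chr13:108636170-108636469: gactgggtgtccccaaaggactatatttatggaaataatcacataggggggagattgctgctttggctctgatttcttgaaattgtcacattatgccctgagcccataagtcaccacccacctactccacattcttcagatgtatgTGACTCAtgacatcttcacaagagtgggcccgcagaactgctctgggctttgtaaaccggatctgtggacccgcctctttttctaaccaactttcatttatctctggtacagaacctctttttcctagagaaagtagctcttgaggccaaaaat

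The Gm20388 stretch held 6 CpGs, with 0% of 39 calls methylated in WT (interval up to 8.97%) and 90.5% of 21 calls in TCKO (71.1% to 97.3%). The Pde4d stretch held 3 CpGs, with 2.27% of 44 calls in WT and 90.6% of 32 calls in TCKO. In both stretches nearly all calls around the string were unmethylated in WT and methylated in TCKO.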

How the data were processed

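WGBS was compared between 1 WT and 1 TCKO library, grouped by the genotype in the labels. The authors aligned reads to GRCm38 with BSMAP 2.74 and kept uniquely mapped reads; they deposited, per CG cytosine and strand, counts of methylated calls and of all calls, without normalization. Removal of duplicate reads is not given in the sources used here, and calls on 1 read are not independent, so intervals cover counting error only. RNA-seq and other data were not analysed here.

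Counts were summed in 1 kb windows of 19 autosomes. Distances ran from window midpoints to TSSs of coding transcripts in GENCODE M21. Levels carry 95% Wilson intervals and differences Newcombe intervals. No test was made, because the calls that chose the windows are those described. The code was tested on simulated data. Windows, gene lists, strings and naming rules were chosen with earlier results of these data known. Named were the 10 largest differences with at least 100 calls in each library, the 10 genes with most windows, the 5 largest clusters and 5 longest runs, the 10 largest differences over a TSS, list genes and the genes of the study. Distances from a string and from miRNA genes, and the windows printed for the AP-1 string, were chosen after seeing the data. Alternatives changed the limits, strand, grid, deep cytosines and averaging. Python 3.11.15, numpy 2.4.6, pandas 2.3.3 and matplotlib 3.10.9 were used.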

Additional observations from a re-analysis of the deposited data

How the results depend on the processing

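The number of windows was 6052 and moved most with the limits themselves. It was 3908 with at least 80 calls, 3010 with at least 20 CG rows, 3241 with WT below 20%, 10165 with a difference of 40 points, 2296 with 60 points and 1586 where the 95% bounds had to pass the limits. With the other 8 alternatives it ranged from 5939 to 7532. With the mean of cytosine levels in place of pooled calls, 6552 windows met the rule, of which 4345 were among the 6052. On the plus strand alone, with the limits lowered to 5 CG rows and 20 calls, there were 7417, of which 3985 were shared. On the minus strand alone, with the same lowered limits, there were 7304, of which 3887 were shared. The median difference stayed between 52.3 and 66.8 points. The share within 10 kb of a coding TSS was 17.6% with at least 80 calls, 20.8% with at least 20 CG rows, 20.4% with WT below 20%, 19.9% with 40 points, 17.9% with 60 points, 17.8% with mean cytosine levels and 17.4% with the bounds. It was 40.8% with the starts of all transcripts. The share with another window within 10 kb was 21.7% with at least 20 calls, 15.6% with 80 calls, 14.9% with 20 CG rows, 14.1% with WT below 20%, 23.9% with WT below 40%, 25.2% with 40 points, 11.5% with 60 points, 19.04% on a grid shifted by 500 bp and 10.7% with the bounds. It was between 19.9% and 20.8% with the other 5 alternatives. Genes with 3 or more windows ranged from 35 with the bounds to 552 with 40 points, and the share with the AP-1 string from 27.9% to 32.4%. Intron shares ranged from 42.6%, with classes by any overlap, to 49.9%. No paired analysis was possible because the result comes from no test and there is 1 library per genotype. A window of 40 calls has a wide interval, so single windows near the limits may fall on either side of them.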

Other observations

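Outside the autosomes, chromosome X held 101 windows that met the same limits among 38695 eligible ones, 2.61 per 1000, and chromosome Y held 1 among 6189.

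Of the 6052 windows, 57 (0.942%) lay within 5000 bp of the midpoint of an annotated miRNA gene, against 0.867% of all eligible windows. Of these 57, the miRNAs named here were chosen after their values were seen. Beside Mir214, inside Dnm3, a pair of touching windows went from 8.57% of 105 calls in WT to 64.6% of 99 calls in TCKO and from 2.87% of 244 calls to 68.3% of 221. A window near Mir125b-1 went from 7.94% to 73.3% and a window near Mir125b-2 from 11.01% to 75.1%. Near Mirlet7i a window went from 1.27% of 158 calls to 56.7% of 90, and near Mir140, which is known from cartilage, from 22.5% to 75.4%.

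Of non-coding genes, 3110039I08Rik held the most windows, 8 of 275 eligible ones, and Mir99ahg, a host gene of miRNAs, held 5 of 328. The antisense gene Airn, which is imprinted, held 4 of 91. Of all eligible windows classed as non-coding gene, 436 of 94892 met the rule, and of all eligible windows 0.448% did.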
